A study of Mus musculus with 56 samples.

Results

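Paws of arthritic mice that had received an antibody against tumour necrosis factor (TNF) were compared with paws of arthritic mice that had received a control antibody. The groups were taken from the treatment labels, which gave 13 anti-TNF and 13 isotype libraries, 26 of the 56 libraries in the series. All mice were male DBA/1, a strain prone to collagen-induced arthritis (CIA), and were immunised with chicken type II collagen on days 1 and 21. From day 21 they received 2 injections per week for 5 weeks, either of the anti-TNF antibody XT3.11 at 30 mg/kg or of an IgG1 isotype control at 30 mg/kg. RNA was taken from whole front paws on day 91, when the injections were over, so the values describe paws some weeks after dosing and not paws under the antibody. Each library is a mouse of its own. The labels give no ages, clinical scores or hour of tissue collection. The 4 libraries labelled no CIA, from mice of the same strain and sex, are shown as a background level. For these mice no immunisation and no dose of any antibody, isotype included, is listed. No CIA and isotype paws thus differ in injections as well as in arthritis. Other libraries came from mice given an antibody against interleukin 6 (IL-6) at 10 mg/kg (13) or both antibodies (13, called the combination). The combination was 30 mg/kg of anti-TNF and 10 mg/kg of anti-IL-6. These other libraries are used beside the clock genes and in a few further observations at the end.

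TNF is a cytokine made chiefly by macrophages and T cells. It binds the receptors encoded by Tnfrsf1a and Tnfrsf1b, and the adaptors recruited there activate NF-kB, which induces chemokines, adhesion molecules, cytokines and proteases. In an inflamed joint TNF acts on synovial fibroblasts, endothelium and osteoclast precursors, and antibodies that block it are used to treat rheumatoid arthritis. An antibody acts on the protein, so the messenger RNA of Tnf is no test of whether the antibody worked.

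Levels are deposited FPKM (fragments per kilobase of transcript per mega of mapped fragments), and differences are on the log2(FPKM + 1) scale, anti-TNF minus isotype, with a 95% interval. The scale understates differences of genes with low values. Depth, estimated from the steps between low FPKM values, ran from 41.0 to 54.2 M fragments in anti-TNF libraries (median 46.1) and from 39.9 to 50.2 M in isotype libraries (median 44.8). The gene lists named below were chosen with earlier results of these data known. A list's score in a library is the mean log2(FPKM + 1) of its tested members. Over the 26 paws the lowest score of any library was 2.7 for osteoblast and osteocyte markers and 8.24 for epidermal markers. It was 6.96 for skeletal muscle markers and 4.52 for synovial fibroblast and lining markers. A score is a mean and does not show that each marker was present. Paws differed widely: the osteoblast and osteocyte score ran from 2.7 to 5.91 in anti-TNF and from 2.84 to 5.8 in isotype libraries. Mouse numbers in the titles run from 43 to 55 for isotype, and anti-TNF numbers are all lower, so treatment and mouse number cannot be told apart. Replicate 6 of anti-TNF carries mouse number 2, outside the block of 15 to 27 that holds the other 12, and number 20 of that block stands in the title of anti-IL-6 replicate 2. Groups follow the treatment labels. Without anti-TNF replicate 6, 674 genes had an unadjusted p under 0.05 in place of 802.

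No gene passed the test. Of 14468 genes that averaged at least 1 FPKM in either group, limma with Benjamini-Hochberg adjustment called 0 (0%), and the smallest adjusted p was 0.825. At an unadjusted p under 0.05 there were 802 genes (5.54%), 493 higher in anti-TNF (3.41%) and 309 lower (2.14%). A p that misses the threshold does not show that the groups were alike, so the intervals matter. For 13950 genes (96.4%) the interval lay within 1 on either side of 0, a band of 2-fold on this scale. For 84.6% it lay within 0.5. The median size of a difference was 0.0633 and the median width of an interval 0.342. Of all tested genes 7862 (54.3%) were on the higher side in anti-TNF and 6606 on the lower. Counts of list members on a side, or with an interval within 1, are to be read beside these shares. The largest axis of variation among the 26 libraries held 44.5% of the variance, and 1.29% of that axis lay between the groups. Across libraries its position moved with the skeletal muscle score (r = -0.89 over 26 libraries, a description, since both come from the same libraries).

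TNF itself lay at low levels. The gene (ENSMUSG00000024401.14, chromosome 17, 35199381 to 35202007, GRCm38) had 0.673 FPKM in the lowest anti-TNF library, 1.78 at the median and 6.12 in the highest. Isotype libraries ran from 1.06 through a median of 1.51 to 2.75, and no CIA libraries from 0.747 through 0.944 to 1.02. The groups overlapped, with 7 of 13 anti-TNF libraries inside the isotype range, and the highest value belonged to anti-TNF replicate 4. The difference was 0.19 (-0.16 to 0.53, limma adjusted p = 0.974), and 0.08 without replicate 4. The intervals for Ltb, which encodes lymphotoxin beta (0.27, -0.49 to 1.03), and for Tnfrsf1b (0.18, -0.39 to 0.75) also held 0. Tnfrsf1b, the receptor found mostly on leukocytes and endothelium, had 2.36, 6.57 and 18.9 FPKM (lowest, median, highest) in anti-TNF paws and 2.30, 4.89 and 17.3 in isotype paws. No CIA paws had 2.20, 2.61 and 2.7, so the medians of both arthritic groups lay above every no CIA library. Tnfrsf1a, the receptor on most cell types, was abundant in both groups, at 50.9, 94.5 and 112 FPKM against 61.7, 90.4 and 106 (difference 0.08, -0.15 to 0.30). Ltbr, the receptor for lymphotoxins, differed by 0.09 (-0.20 to 0.38). Adam17, the protease that sheds TNF from cells, differed by 0.05 (-0.13 to 0.22). All 6 tested genes of TNF, its receptors and this protease had a difference above 0, with a median of 0.13 beside 0.01 over all tested genes, and 0 were called. Lymphotoxin alpha (Lta) did not pass the filter.

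Downstream of the receptors, 17 of 22 signalling genes were on the higher side, beside 54.3% of all tested genes. The other 5 were on the lower side, the median was 0.06 and 0 were called. All 22 intervals lay within 1. Traf2, an adaptor of both TNF receptors, had 9.55, 13.4 and 17.6 FPKM in anti-TNF paws and 9.36, 11.2 and 15.2 in isotype paws, ranges that overlap over most of their length. Its difference was 0.22 (0.06 to 0.39, unadjusted p = 0.00859, limma adjusted p = 0.860). Otulin, which removes linear ubiquitin chains from the signalling complex, differed by 0.15 (0.02 to 0.27, adjusted p = 0.876). Of 17 tested NF-kB response and feedback genes, 12 were on the higher side with a median of 0.05, 0 were called, and all 17 intervals lay within 1. Nfkbia, the inhibitor that NF-kB induces against itself, had 34.2, 59.6 and 92 FPKM against 44.2, 63 and 68.3. The isotype range lay wholly inside the anti-TNF range, and the interval of the difference ran from -0.23 to 0.22. Ptgs2, Csf2, Csf3 and Tnfrsf9, classical NF-kB targets, lay below the filter in both groups. With skeletal muscle and epidermal scores as covariates the median of the NF-kB list was -0.03 and that of TNF and its receptors -0.02.

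Cytokines and chemokines spread widely within each group. Among 16 chemokine genes 14 were on the higher side, with a median of 0.15 and 0 called, and 9 intervals lay within 1. Leaving out anti-TNF replicate 4 took the median to -0.02, and the tissue covariates took it to -0.09. Ccl8, a monocyte attractant, had 48.9, 156 and 906 FPKM in anti-TNF paws, 72.2, 142 and 366 in isotype paws, and 35.4, 44.1 and 70.7 in no CIA paws. Every isotype library lay above every no CIA library, and the anti-TNF and isotype medians differed little against their ranges (0.17, -0.47 to 0.80). Cxcl9, an interferon-gamma target that attracts T cells, had 0.180, 1.01 and 3.08 FPKM against 0.255, 0.496 and 1.23. Its difference was 0.35 (0.05 to 0.65, unadjusted p = 0.0230, limma adjusted p = 0.876), at levels so low that the added 1 FPKM damps the difference. Il6 itself had 0.0664, 0.611 and 7.42 FPKM against 0.0239, 0.970 and 8.24 (difference -0.14, -0.97 to 0.68). Of 14 genes of the IL-1 and IL-6 families 6 were on the higher side and 8 on the lower, with a median of -0.01, and 13 intervals lay within 1. That median is too near 0 to have a side: it turned with several single libraries left out. Il6ra and Il6st, the chains of the IL-6 receptor, differed by -0.02 and 0.03. Il1rap, the shared chain of IL-1 receptors, had the smallest p of the list (-0.20, limma adjusted p = 0.899). Il18, an IL-1 family cytokine that induces interferon gamma, differed by -0.29 (-0.66 to 0.07).

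**Figure D1:**
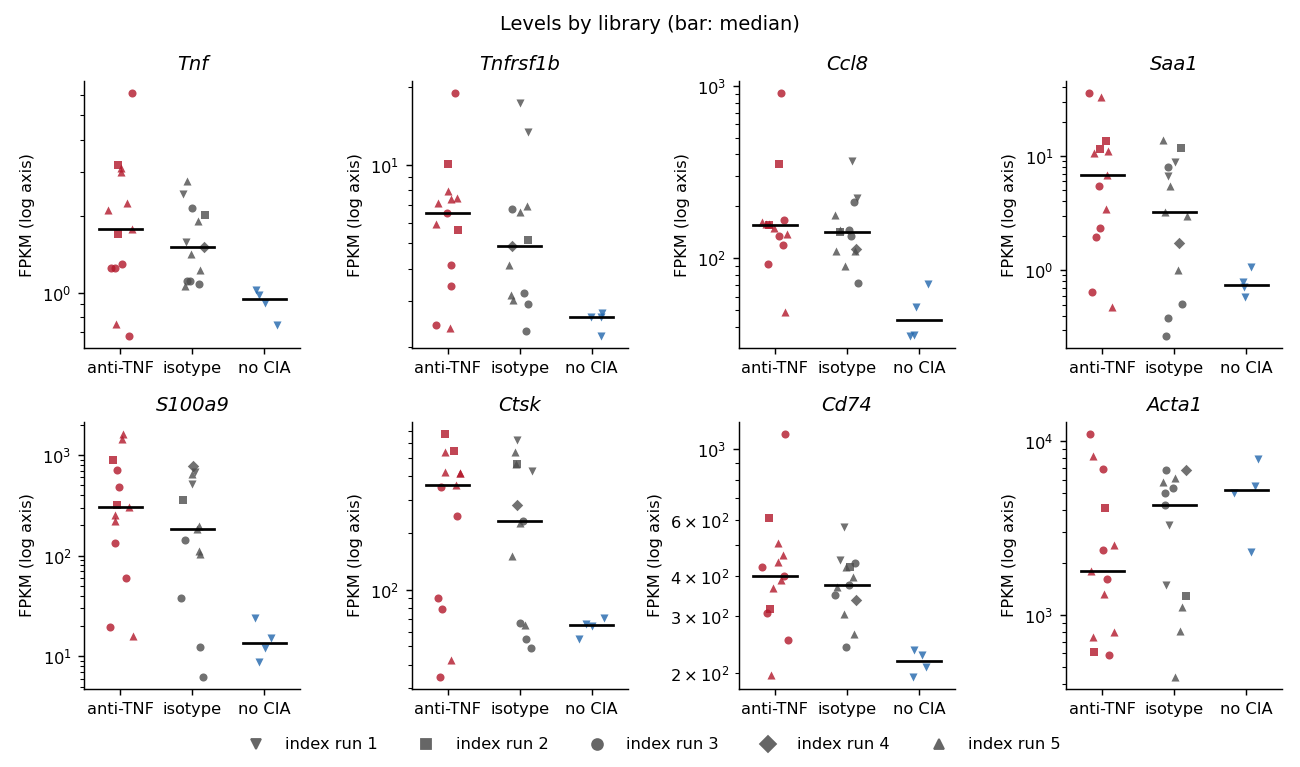
FPKM on log axes in anti-TNF (13), isotype (13) and no CIA (4) libraries, one point per library with its shape giving the index run and a bar at the median. In each panel the anti-TNF and isotype points overlap, as for Tnf, where anti-TNF runs from 0.673 to 6.12 and isotype from 1.06 to 2.75.

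Acute-phase and matrix genes had wide intervals. Of 13 acute-phase and STAT3 target genes 9 were on the higher side (median 0.08, 0 called), and the median was -0.04 without anti-TNF replicate 4 and -0.01 without isotype replicate 8. Saa1, an acute-phase lipoprotein, had 0.479, 6.76 and 35.5 FPKM against 0.264, 3.24 and 13.9 in isotype and 0.585, 0.748 and 1.06 in no CIA paws. The difference of 0.74 had an interval from -0.30 to 1.79, so a difference of 1 lies inside it and 0 does too. Saa3, its relative made in inflamed tissue, ran from 0.234 to 1800 FPKM in anti-TNF paws and from 0.621 to 335 in isotype paws (0.44, -1.54 to 2.43). Among 13 matrix metalloproteinases and their inhibitors 11 were on the higher side, the median was 0.08 and 0 were called. Mmp2, a gelatinase of fibroblasts, had 68.4, 349 and 607 FPKM against 84.4, 249 and 566 (0.07, -0.75 to 0.88). With the tissue covariates the medians of both lists were -0.13. Lcn2, an iron-binding protein of neutrophils and inflamed epithelium, differed by 0.55 (-0.44 to 1.53).

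Markers of leukocytes were mostly on the higher side, where 54.3% of all tested genes lay, with none called. This held for 14 of 15 neutrophil markers (median 0.17), 10 of 10 markers of marrow granulocyte precursors (0.21), 14 of 15 monocyte and macrophage markers (0.22), 7 of 7 T cell markers (0.15) and 6 of 7 B and plasma cell markers (0.28). Genes of a list move together across libraries, so the number on a side is not a number of independent observations. In whole paws, more cells of a type and more RNA per cell cannot be told apart. S100a9, a calcium-binding protein of neutrophils, had 15.8, 304 and 1620 FPKM in anti-TNF paws and 6.22, 185 and 774 in isotype paws. No CIA paws had 8.81, 13.7 and 24.1, and both arthritic groups held libraries inside that range. Its difference was 0.73 (-0.80 to 2.26), and within the index runs described below it was 0.56, 2.39 and 0.60. The neutrophil score lay above the highest no CIA library in 11 anti-TNF and 11 isotype libraries. Lyz2, lysozyme of macrophages and neutrophils, had 242, 661 and 1550 FPKM against 259, 447 and 1180 (0.36, -0.15 to 0.86). Cd2, an adhesion receptor of T cells, differed by 0.29 (0.00 to 0.58, unadjusted p = 0.0481, limma adjusted p = 0.899). Jchain, the joining chain of secreted antibodies, differed by 0.72 (-0.18 to 1.61). The median of the marrow precursor list was -0.05 without anti-TNF replicate 1, and that of the neutrophil list -0.09 with the tissue covariates. In index runs 2, 3 and 5 the mean difference of the marrow precursor list was 1.33, 1.07 and -0.26, so its side was not the same in each. Medians of the macrophage, T cell and B cell lists stayed above 0 in each setting tried, the lowest being 0.03, 0.02 and 0.10. In run 2 the mean T cell score was 1.502 in anti-TNF and 1.506 in isotype, and in runs 3 and 5 the difference was 0.29 and 0.24. In runs 2, 3 and 5 the macrophage list differed by 0.62, 0.41 and 0.20 and the B cell list by 0.78, 0.41 and 0.31.

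Joint and bone genes gave medians above 0 as well. All 13 synovial fibroblast and lining markers were on the higher side (median 0.15), as were 11 of 12 osteoclast genes (0.17) and 11 of 12 osteoblast and osteocyte markers (0.16), with 0 called. Ctsk, the collagen-degrading protease of osteoclasts, had 34.4, 360 and 671 FPKM in anti-TNF paws, 49.3, 233 and 623 in isotype paws and 54.9, 64.8 and 70.6 in no CIA paws. Low and high libraries occurred in both groups, and the interval of the difference (0.20, -0.84 to 1.23) reached past 1. Col1a1, the main collagen of bone and connective tissue, differed by -0.03 with an interval from -1.08 to 1.02. The spread between mice sets the width of such an interval. Cartilage markers had a median of -0.03, with 5 on the higher and 8 on the lower side, and its sign turned in 9 of the fits that left out 1 library. The tissue covariates took the medians of the synovial, osteoclast and osteoblast lists to -0.01, -0.12 and -0.09.

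Muscle and hair went the other way. All 15 tested skeletal muscle markers were on the lower side (median -0.28), and so were all 12 hair and nail keratin markers (-0.47), 9 of 12 epidermal markers (-0.11) and 5 of 6 erythroid markers (-0.21), again with 0 called. The erythroid median was 0.08 with weights per library and reached 0.00 without isotype replicate 12, and the list's mean difference was 0.52, 0.37 and -0.24 in index runs 2, 3 and 5. Acta1, skeletal muscle actin, had 590, 1780 and 11000 FPKM in anti-TNF paws, 438, 4280 and 6850 in isotype paws and 2310, 5270 and 7940 in no CIA paws. The anti-TNF group held the highest library, and the isotype group the lowest. The difference was -0.40 (-1.44 to 0.64). Krtap8-1, a protein of the hair shaft, differed by -0.62 (-1.42 to 0.19). The score of the skeletal muscle list ran from 6.96 through a median of 8.56 to 11.06 in anti-TNF and from 7.02 through 9.55 to 10.41 in isotype. These are markers of other tissues in the same sample. Across the 26 libraries the muscle score and the TNF receptor signalling score had r = -0.86, given as a description. Of the 4 lists only muscle followed the largest axis closely, with r = 0.34 for hair keratins, -0.23 for epidermal and 0.19 for erythroid markers. Within index runs the muscle list had mean differences of 0.52, -0.83 and 0.09, so its side was not the same in each. Muscle and epidermal scores come from the same paws as the inflammatory genes, so the covariate fits above cannot separate tissue share from inflammation. The part of muscle in the inflammatory differences was not tested.

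In lists tied to interferon and antigen presentation every tested interval lay within 1, as did 96.4% of all tested genes. All 23 intervals of interferon-induced genes lay within 1, with 9 on the higher and 14 on the lower side, a median of -0.04 and 0 called. The median took the other sign with index run as a covariate, with weights per library, and without isotype replicate 4 (0.08), 7 (0.01) or 9 (0.02). The interferon score ran from 2.14 through 2.55 to 3.26 in anti-TNF, from 2.17 through 2.49 to 3.77 in isotype and from 1.48 through 1.61 to 1.76 in no CIA paws, so all 13 libraries of each arthritic group lay above every no CIA library. Anti-TNF and isotype scores overlapped almost wholly. All 10 MHC class II genes were on the higher side (median 0.13), with intervals within 1. Cd74, the invariant chain that carries class II molecules, had 197, 401 and 1110 FPKM against 240, 377 and 570 (0.13, -0.26 to 0.52), and the difference was 0.01 without anti-TNF replicate 4. All 13 complement genes were on the higher side too (median 0.19, 0 called), with C1qc, a chain of C1q made by macrophages, at 0.30 (-0.02 to 0.63).

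The other lists lay close to 0. Endothelial markers had a median of 0.04 (9 higher, 3 lower), mast cell markers -0.02 (5 and 5), adipocyte markers 0.02 (7 and 4), and Schwann cell and nerve markers -0.07 (3 and 7). All 20 cell cycle genes had intervals within 1 and a median of 0.01 (12 and 8), beside 54.3% of all tested genes on the higher side. Birc5, an inhibitor of apoptosis that acts in mitosis, had the smallest p among them (0.22, 0.01 to 0.42, limma adjusted p = 0.897). None of the members of these lists was called, and the small medians of the endothelial, mast cell, adipocyte and cell cycle lists turned sign when some single libraries were left out.

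**Figure D2:**
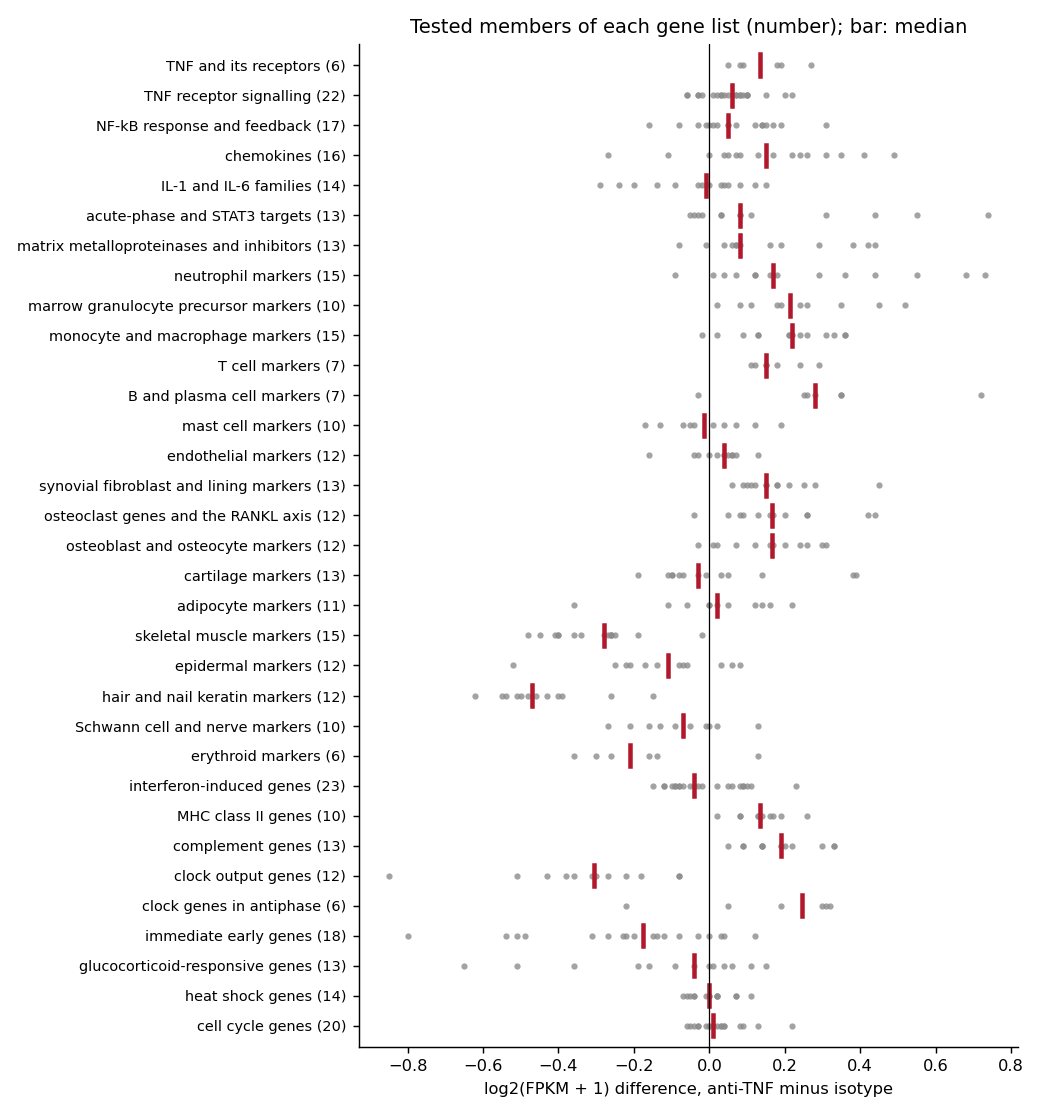
Log2(FPKM + 1) differences, anti-TNF minus isotype, for the tested members (points) of 33 gene lists, with a bar at each list's median and the number of members in brackets. Medians lie above 0 for 20 lists and below 0 for 12, and no point is a called gene.

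Single libraries at the extremes were mostly anti-TNF paws. Over 33 lists the SD of the score was larger in anti-TNF than in isotype in 23, the highest library was an anti-TNF library in 22 and the lowest in 26. Replicate 4 of anti-TNF was the highest in 14 lists. Replicate 7 was the lowest in 14 lists and the highest in 1, the skeletal muscle list. The lists overlap in genes and follow the same axis, so these counts are not independent. Index numbers in the titles form 5 stretches, here called index runs, and titles do not say whether these were processing batches. Both groups occur in run 2 (2 anti-TNF, 1 isotype), run 3 (5 and 4) and run 5 (6 and 5). Runs 1 and 4 hold 2 and 1 isotype libraries and no anti-TNF library, and run 1 holds all 4 no CIA libraries.

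Among genes averaging at least 5 FPKM, those with the smallest unadjusted p on the higher side had small differences. Mrpl49, a protein of the large subunit of the mitochondrial ribosome, had 20.0, 21.6 and 23.5 FPKM in anti-TNF paws and 17.7, 19.9 and 21.1 in isotype paws. All 13 anti-TNF libraries lay above the isotype mean and 4 lay inside the isotype range. The difference was 0.13 (0.07 to 0.20, unadjusted p = 0.000201, limma adjusted p = 0.825), and in runs 2, 3 and 5 it was 0.15, 0.12 and 0.13. Mrpl28, of the same subunit, had 40.2, 49.4 and 61.3 FPKM against 39, 42.7 and 47.2, a difference of 0.20 (unadjusted p = 0.000243). Emg1, a methyltransferase that acts in making small ribosomal subunits, differed by 0.16, and Psmg3, a chaperone of proteasome assembly, by 0.24. On the lower side Rab5a, a small GTPase of early endosomes, had 28.0, 32.9 and 41.0 FPKM against 31.1, 41.5 and 54.1 (-0.31, adjusted p = 0.825). Of the 8 genes with the smallest p on that side, Per3, Dbp and Tef belong to the circadian clock.

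The clock is a feedback loop present in most cells. The activators Arntl and Clock, or Npas2 in its place, bind E-boxes and drive the Per and Cry repressors, the Nr1d receptors and the factors Dbp, Tef and Hlf, which in turn bind D-boxes. Nr1d1 and Nr1d2 repress Arntl, and Nfil3 competes with Dbp at D-boxes, so Arntl, Npas2 and Nfil3 peak when Dbp is low. The elements are shown because they are the sites through which the loop is known to work. Promoter windows from RefSeq (GRCm38.p6) were searched over 250 bases before each start. The E-box CACGTG, which reads the same on both strands, occurred in 6.02% of 32851 windows and in 5 of the 12 windows of output genes. Those 5 windows belonged to 4 of the 10 output genes with a window. Of 9 windows of antiphase genes 1 held an E-box. The D-box TTATGTAA, or TTACATAA on the other strand, occurred in 0.819% of windows and, among clock genes, only in that of Per3. No clock gene window held both motifs. A match is a description of letters and shows no binding, and the grouping below follows the known phase of the genes and not these matches. The stretches below are 5′ to 3′ on the gene's strand with the motif in capitals. They are Ciart (chr3:95882247-95882364, minus), Per3 (chr4:151044796-151044890, minus), Per1 (chr11:69098763-69098808, plus), Tef (chr15:81802526-81802571, plus), Bhlhe41 (chr6:145865548-145865593, minus) and, from the antiphase group, Cry1 (chr10:85185089-85185134, minus).
Ciart: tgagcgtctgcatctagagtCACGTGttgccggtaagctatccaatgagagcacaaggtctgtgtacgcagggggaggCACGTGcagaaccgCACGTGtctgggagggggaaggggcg
Per3: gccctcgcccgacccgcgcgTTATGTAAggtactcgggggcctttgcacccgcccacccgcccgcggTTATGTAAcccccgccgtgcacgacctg
Per1: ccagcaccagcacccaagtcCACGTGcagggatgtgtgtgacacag
Tef: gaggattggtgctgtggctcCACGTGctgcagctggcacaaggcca
Bhlhe41: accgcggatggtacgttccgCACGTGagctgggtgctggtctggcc
Cry1: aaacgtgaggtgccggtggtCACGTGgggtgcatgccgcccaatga
Ciart, which encodes a repressor of the activators, held 3 E-boxes within 116 bases of its start, and Per3 held 2 D-boxes between 150 and 205 bases before its start. Another window of Tef, not shown, also held 1 E-box (chr15:81811256-81811301, plus).

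The 12 clock output genes reported here were on the lower side in anti-TNF paws, with a median of -0.30 beside 0.01 over all tested genes. Of these, 8 had an unadjusted p under 0.05, on a side where 2.14% of all tested genes did, and 0 were called. The clock list was known from earlier results of these data, and 1 gene first placed in it is not reported here, so the count is a description of the genes shown. Dbp, a factor that binds D-boxes (ENSMUSG00000059824.12), had 18.3, 35.4 and 63.3 FPKM in anti-TNF paws, 35.6, 64.2 and 118 in isotype paws and 64.9, 100 and 145 in no CIA paws. Of the 13 anti-TNF libraries 12 lay below the isotype mean, 6 lay inside the isotype range, and all lay below every no CIA library. The difference of -0.85 (-1.34 to -0.35) had an unadjusted p of 0.00124 and a limma adjusted p of 0.825. Per3, a repressor of the loop (chromosome 4, 151003652 to 151044665), had 3.33, 4.30 and 5.92 FPKM against 4.14, 6.11 and 11.0, and 7.08, 10.9 and 13.6 without CIA. All 13 anti-TNF libraries lay below the isotype mean and 7 inside the isotype range (-0.43, -0.66 to -0.19, unadjusted p = 0.000613, limma adjusted p = 0.825).

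Tef, the relative of Dbp, had 23.6, 31.1 and 44.0 FPKM against 28.0, 38.9 and 65, and 53.2, 65.2 and 77.2 without CIA (-0.38, -0.63 to -0.14). Ciart had 3.62, 5.95 and 8.63 against 4.09, 9.70 and 20.3, and 9.88, 20.3 and 23.8 without CIA (-0.51, -0.89 to -0.14). In both genes the anti-TNF median lay below the isotype median and the isotype median below the no CIA median, with overlap between the arthritic groups. Per1, the repressor that also answers to glucocorticoids, had 6.43, 9.07 and 17.2 FPKM against 9.29, 12.3 and 18.3 (-0.36, -0.65 to -0.07). Of the other output genes, Nr1d2 differed by -0.31, Bhlhe41 by -0.30 and Bhlhe40 by -0.18, each with an interval below 0. Nr1d1 (-0.27), Hlf (-0.22), Per2 (-0.08) and Cry2 (-0.08) had intervals that reached 0.

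**Figure D3:**
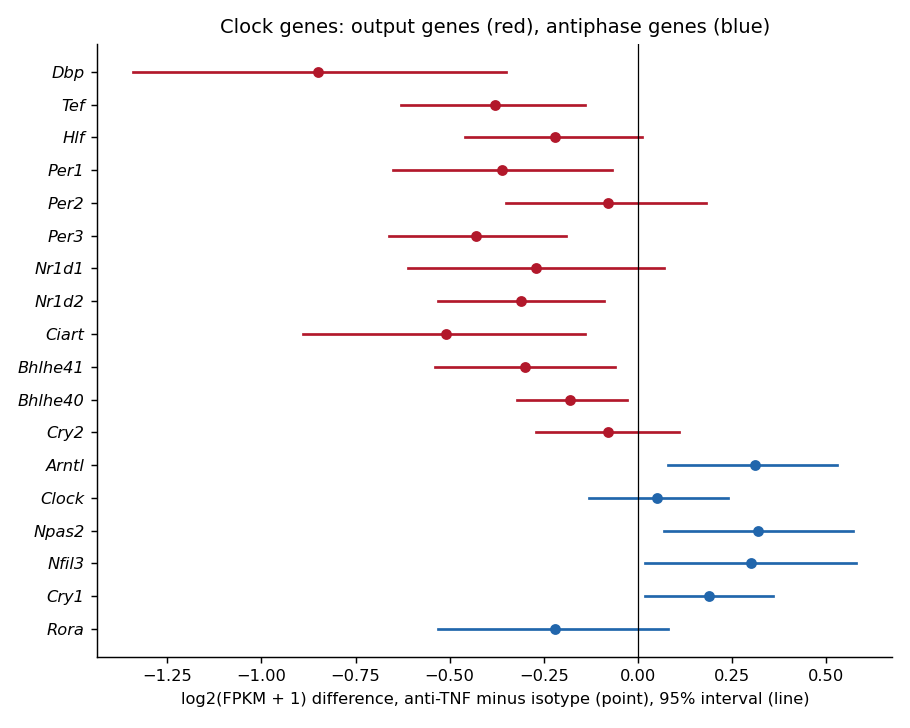
Log2(FPKM + 1) differences, anti-TNF minus isotype, with 95% intervals for 12 clock output genes (red) and 6 genes in antiphase (blue). The red points shown lie below 0, from -0.85 for Dbp to -0.08 for Per2 and Cry2, and 5 of 6 blue points lie above 0.

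The genes in antiphase were on the other side. Of 6, 5 were on the higher side (median 0.25), 4 had an unadjusted p under 0.05 on a side where 3.41% of tested genes did, and 0 were called. Arntl, the activator, had 10.2, 11.4 and 16.1 FPKM in anti-TNF paws, 7.03, 9.83 and 13.3 in isotype paws and 6.05, 7.36 and 9.55 in no CIA paws. All 13 anti-TNF libraries lay above the isotype mean and above every no CIA library, while 9 lay inside the isotype range. The difference was 0.31 (0.08 to 0.53, unadjusted p = 0.00821, limma adjusted p = 0.856). Npas2 had 1.84, 3.55 and 4.65 FPKM against 0.933, 2.86 and 4.31, and 0.946, 1.16 and 1.60 without CIA (0.32, 0.07 to 0.57). Nfil3 and Cry1 differed by 0.30 and 0.19, Clock by 0.05 and Rora, an activator of Arntl, by -0.22.

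**Figure D4:**
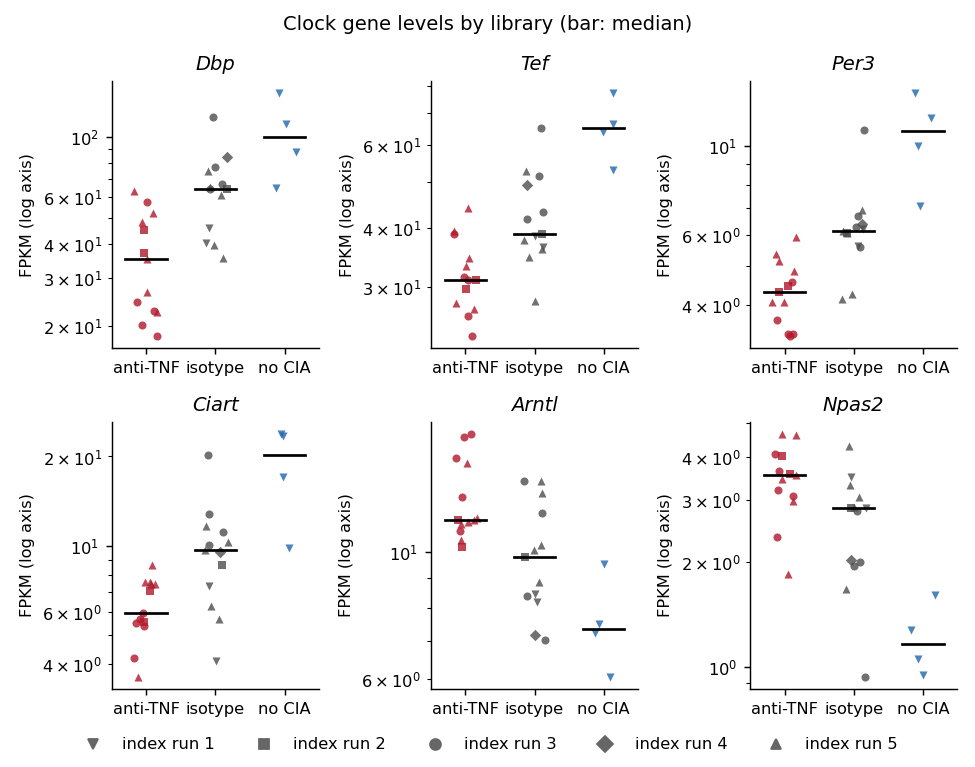
FPKM on log axes of 4 clock output genes and of Arntl and Npas2 in anti-TNF (13), isotype (13) and no CIA (4) libraries, one point per library with its shape giving the index run and a bar at the median. For Dbp the medians are 35.4, 64.2 and 100, and for Arntl 11.4, 9.83 and 7.36.

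The score of the output genes ordered the groups in the same way. It ran from 3.28 through a median of 3.71 to 3.92 in anti-TNF, from 3.58 through 4.01 to 4.55 in isotype and from 4.12 through 4.52 to 4.70 in no CIA paws. The lowest no CIA library lay above all 13 anti-TNF libraries and above 9 of the isotype libraries. For the antiphase score 12 anti-TNF and 7 isotype libraries lay above the highest no CIA library. The size of the difference varied by index run. For the output list it was -0.28 in run 2, -0.70 in run 3 and -0.11 in run 5, and for the antiphase list 0.13, 0.25 and 0.05. Dbp had -0.63, -1.57 and -0.44, and Per1 had -0.41, -0.81 and 0.01. The direction was shared by the 3 runs for Dbp, Per3, Tef, Ciart, Arntl and Npas2, and their largest value came from run 3. It was not shared for Per1, Per2 (0.04, -0.47 and 0.29) or Cry2 (-0.15, -0.31 and 0.10). Bhlhe40 (0.05 and -0.37 in runs 2 and 3) and Clock (0.07, 0.07 and -0.12) did not share it either. Whether the runs differ from each other was not tested. With index run as a covariate Dbp had -0.96 (limma adjusted p = 0.647), and with tissue scores as covariates -0.79 (adjusted p = 0.148). Clock genes follow the hour of the day, and hour and treatment cannot be told apart here.

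Values from the other antibody groups stand beside these, and all 3 comparisons share the anti-TNF libraries. Against anti-IL-6 paws 0 of 14490 genes (0%) passed the limma test, and 684 (4.72%) had an unadjusted p below 0.05. There 9 of the 12 output genes were on the higher side in anti-TNF and all 6 antiphase genes on the lower side, with medians of 0.26 and -0.19. On the higher side 6 output genes had an unadjusted p below 0.05, beside 1.31% of all tested genes. On the lower side 1 output gene (Per1) and 3 antiphase genes did, beside 3.41%. Dbp had a mean of 18.0 ± 10.7 FPKM (SD, n = 13) in anti-IL-6 paws and 36.5 ± 15.4 in anti-TNF paws, a difference of 1.05 (0.56 to 1.55, limma adjusted p = 0.348). Per1 differed by -0.32. Against combination paws 0 of 14455 (0%) passed, and 158 (1.09%) had an unadjusted p below 0.05. The 12 output genes reported were on the lower side (median -0.24), and 5 of them had an unadjusted p below 0.05, as 0.367% of tested genes did on that side. Dbp, at 60.5 ± 28.6 FPKM in combination paws, differed by -0.68 (-1.17 to -0.18, limma adjusted p = 0.999).

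Other early-response genes were looked at beside the clock genes because Per1 responds to stress and hormones. Of 18 immediate early genes 15 were on the lower side, with a median of -0.18, 3 at an unadjusted p under 0.05 (Jun, Egr1 and Egr3, beside 2.14% of tested genes on that side) and 0 called. Jun, a subunit of the AP-1 factor, had 24.8, 34.3 and 42.4 FPKM against 29.6, 36.1 and 57.7 (-0.22, -0.42 to -0.03). Fos, its partner, had 5.29, 13.2 and 94.7 against 5.61, 27.1 and 117, and its interval from -1.62 to 0.01 reached 0. Glucocorticoid-responsive genes had a median of -0.04, with 5 on the higher and 8 on the lower side and differences from -0.65 to 0.15. Of these, 2 had an unadjusted p under 0.05, beside 5.54% of all tested genes, and 0 were called. Per1 belongs to this list too and had its smallest p, so the list is not separate from the clock genes. Sgk1, a kinase induced by glucocorticoids, had 40.5, 50.4 and 70.1 FPKM against 49.0, 61.2 and 73.6 (-0.19, -0.35 to -0.04, limma adjusted p = 0.860).

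Differences also varied with gene length. Of the tested genes 13708 (94.7%) had a transcript length in GENCODE M21, and they were put in 5 bins of equal size by their longest transcript. In the shortest bin 65.8% of genes were on the higher side in anti-TNF, with a median of 0.047, and in the longest bin 41.8%, with a median of -0.014. Spearman's rho over genes was -0.20, and genes are not independent replicates. Of genes with an unadjusted p under 0.05, 166 were higher and 25 lower in the shortest bin, against 30 and 88 in the longest. Per library, the mean of the shortest bin minus that of the longest ran from 1.03 through 1.10 to 1.30 in anti-TNF and from 0.84 through 1.11 to 1.20 in isotype, ranges that overlap. The labels give no measure of RNA quality, whose part was not tested.

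**Figure D5:**
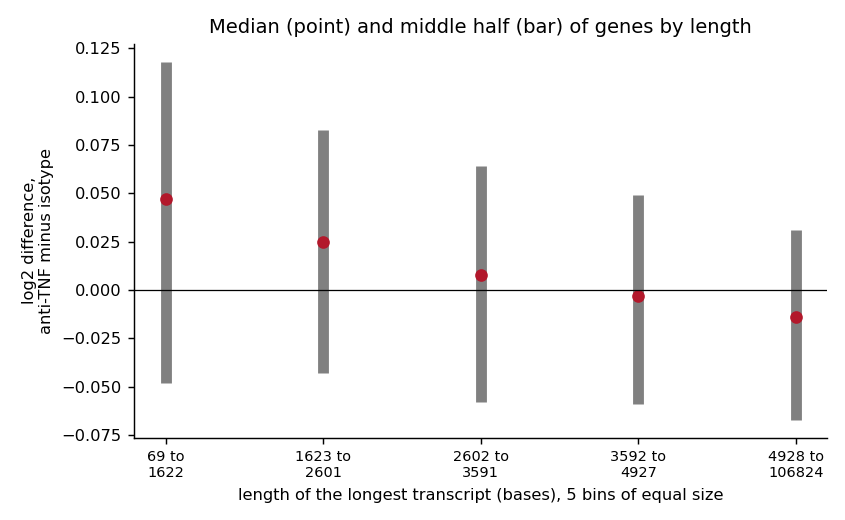
Median (point) and middle 50% (bar) of the log2(FPKM + 1) difference, anti-TNF minus isotype, in 5 bins of genes by the length of the longest transcript in bases. The median steps from 0.047 in the shortest bin to -0.014 in the longest.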

How the data were processed

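RNA of whole front paws was sequenced, per the labels' protocols, from libraries made with a stranded Illumina messenger RNA kit and read in pairs. The authors deposited FPKM, 1 column per mouse, a unit read from the values. The submitters' processing notes name DESeq2 with neither version nor role. For aligner, build, annotation and strand use the entry is "not given in the sources used here", so reads of overlapping, antisense or near-identical genes may be shared. The design foresaw counts, and because the file held FPKM, limma 3.58.1 (R 4.3.3; trended, robust prior) was run on log2(FPKM + 1). A single model with group means covered the 56 libraries (51 residual degrees of freedom). Genes with a mean of at least 1 FPKM in either group were tested. P-values are two-sided and Benjamini-Hochberg adjusted over them, with a threshold of 0.05. They set a difference between groups against the spread between mice, estimated over all 56 libraries. With the 2 compared groups alone the smallest limma adjusted p was 0.979. The fit was run on simulated data in which genes varied independently and each gene had the same spread in all libraries. The real libraries share a large axis of variation, so that run checked the code and not the error rates here. Depth came from the FPKM steps of single-exon genes of at least 400 bases and was not used in the tests.

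Members and lists were chosen with earlier results of these data known. A gene first placed in the clock output list is not reported here. It was left out after the values were seen but not for its values, and counts and medians of that list are those of the genes reported. Named genes were TNF, IL-6 and their receptors, the 8 smallest p in each direction among genes averaging at least 5 FPKM, the member of each list with the smallest p and the one with the highest mean, and the clock genes. Others were chosen after their values were seen: Otulin, Egr1, Egr3, Fos and Sgk1. Alternatives were pseudocounts of 0.1 and 10, no filter or a mean of 5, the compared groups alone, median-of-ratios scaling, index run or tissue scores as covariates, weights per library, and leaving out each library. Of 53431 features, 52207 had a symbol and 51027 matched GENCODE M21 (GRCm38). No libraries held identical values. Software was Python 3.11.15 with scipy 1.17.1, pandas 2.3.3, matplotlib 3.10.9 and numpy 2.4.6.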

Additional observations from a re-analysis of the deposited data

How the results depend on the processing

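The call of 0 genes between anti-TNF and isotype held in each setting tried except weights per library, which called 2989 (2273 higher, 716 lower). With the tissue covariates the smallest limma adjusted p was 0.0541, just above the threshold of 0.05. In the main fit it was 0.825, and without anti-TNF replicate 4 it was 0.152. Weights also called 17 genes against anti-IL-6 and 1 against the combination, where the other settings called 0. Leaving out each anti-TNF or isotype library in turn called 0 to 0 genes between these groups, and the other 2 comparisons were not refitted in this way. Unadjusted p-values under 0.05 against isotype numbered 575 (without anti-TNF replicate 10) to 1345 (without anti-TNF replicate 7) in those fits, and 568 (mean of at least 5 FPKM) to 1978 (tissue covariates) in the others without weights. Among anti-TNF and isotype libraries the weights ran from 0.191 for anti-TNF replicate 7 to 3.1 for anti-TNF replicate 11, and the median size of the differences called with them was 0.24. Of all tested genes 20.7% were called with weights, as were 8 of the 12 clock output genes reported and 1 of the 6 in antiphase. With weights Per3 had -0.41 (limma adjusted p = 0.0125), Dbp -0.76 (0.0253), Tef -0.47 (0.00716), Ciart -0.56 (0.0157) and Arntl 0.28 (0.0597). Over all alternatives 71 of 95 named genes kept 1 sign and 28 of 3691 values moved by more than 1 SD. The cause of these changes was not tested. No paired analysis was possible because replicates were numbered in deposition order, which pairs no mice. The median of all genes lay at 0.0092, and at 0.002 after median-of-ratios scaling.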

Other observations

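Messenger RNAs made almost only in liver were found in a few paws, an observation made after the values were seen. Alb, which encodes serum albumin, exceeded 3 FPKM in 6 of the 56 libraries. It had 48.7 FPKM in anti-TNF replicate 6, 30.5 in anti-TNF replicate 3 and 25.5 in anti-IL-6 replicate 8. Titles of these 3 libraries, and of no other library, carry a suffix after the mouse number. The next values were 13.1 and 8.39 in no CIA replicates 1 and 4 and 3.96 in anti-TNF replicate 5, and the highest of the other 50 libraries was 2.1. Apoa2, an apolipoprotein of liver, followed Alb at 0.80 to 1.73 times its FPKM in the 6 libraries and reached 73.6 in anti-TNF replicate 6. In the isotype group Alb stayed at or below 0.553. Alb, Apoa2 and the liver protease inhibitor Serpina1c were among the largest differences between anti-TNF and isotype (1.06, 1.38 and 1.11). Their highest values lie in these libraries. Of 13 anti-TNF libraries, 11 lay above the isotype mean for Alb, 10 for Apoa2 and 12 for Serpina1c. Medians of Serpina1c were 0.733 FPKM in anti-TNF and 0.12 in isotype. Without anti-TNF replicates 3 and 6, an alternative chosen after seeing the data, 0 genes were called and 788 had an unadjusted p under 0.05.

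The largest difference of any tested gene belonged to Gm12744, a short antisense transcript on chromosome 4 (106587097 to 106589108, GRCm38). It exceeded 10 FPKM in 11 of 13 anti-TNF libraries, 10 of 13 anti-IL-6 libraries, 11 of 13 combination libraries and all 4 no CIA libraries, but in 4 of 13 isotype libraries. The difference was 2.88 (unadjusted p = 0.00279, limma adjusted p = 0.825). The gene was picked for its size, and antisense reads are uncertain where the use of strand is not known. Defb3, a beta-defensin of inflamed skin, differed by 1.18, with a highest value of 200 FPKM in anti-TNF and 31.6 in isotype. The hair proteins Krtap19-4 (-1.08) and Krtap19-5 (-1.05) stood at the other end with Mylk4 (-1.0), a kinase of muscle. In all, 12 tested genes differed by more than 1, and none was called.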
